A study of Homo sapiens with 4 samples.

Results

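The genes described here are 10 human genes for selenoproteins, SEPP1, SEPW1, SEP15, SELK, SELT, SELM, SEPN1, SEPHS2, GPX1 and GPX4, as measured in naive and arsenic trioxide (ATO) resistant NB4 cells. They are 10 of 30811 gene names on the array, and every probe whose gene name in the scanner output is on that list was taken, which gave 12 probes. They were chosen by family, and the family was selected on the measured difference of SEPP1 between these lines, so the values of these genes are given as a description with no test. NB4 is an established cell line of acute promyelocytic leukemia (APL), a leukemia of granulocyte precursors in which ATO is a standard treatment. The groups compared were 2 flasks of naive NB4 with no treatment given in the labels and 2 flasks of the resistant line NB4-VM-AsR1, which the methods call NB4-EV-AsR1 and describe as a clone raised in-house and kept without ATO for 1 week. The names were taken as the same clone, which is an assumption, and no statement can be made about resistant cells other than this clone. Both groups grew in RPMI with 10% FBS, and serum is itself a source of selenium and of bovine selenoprotein P.

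Selenoproteins carry selenocysteine, an amino acid with selenium in place of the sulfur of cysteine. Selenocysteine is inserted at UGA codons, which otherwise end translation, with the help of a hairpin in the untranslated end of the mRNA. Many selenoproteins reduce peroxides or disulfides, and the binding of arsenic to thiols and selenols is textbook chemistry. Selenoprotein P, the product of SEPP1 (now SELENOP), is the exception in that it carries several selenocysteines, is secreted mostly by the liver, and delivers selenium to other tissues through the receptors LRP8 and LRP2.

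The results turn on what single probes read, so parts of their sequences are shown from the array files. Each probe has 60 bases. The first 30 bases are given for SEPP1, whose only probe carries the largest difference, and for both probes of SELK and of SEPN1, which gave different levels for 1 gene. For GPX1, whose probe was saturated, bases 31 to 60 are given with the polyadenylation signal AATAAA in capitals.
SEPP1: cgtaaactatgacctaggggttttctgttg
SELK, brighter probe: tctgcagggaactggcctgactgacatgca
SELK, dimmer probe: actgtgtctaatttgctaccaaatgtaatt
SEPN1, brighter probe: gaaaatgatggcctgggctttctgaggcct
SEPN1, dimmer probe: cactcctgggccttttatgtgccgagttac
GPX1: aggcgagtttccccactAATAAAgtgccgg
The letters AATAAA, searched on the printed strand of whole probes, were present in 1 of the 12 selenoprotein probes and in 1704 of 41000 probes of the array (4.16%). In the coordinates of the array files (hg19), the SEPP1 probe lies at chr5:42800481-42800539 on the minus strand and the GPX1 probe at chr3:49394621-49394680 on the minus strand. The SELK probes lie at chr3:53919362-53919421 and chr3:53919010-53919069 on the minus strand, and the SEPN1 probes at chr1:26144542-26144601 and chr1:26143621-26143680 on the plus strand. The exon or untranslated region under each probe was not looked up, as no annotation of that build was used here.

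Levels are log2 of the processed signal minus the 75th percentile of the array, so a level of 0 is a signal equal to that percentile. Each value below is 1 flask on 1 array, and means are given ± SD over the 2 flasks of a line. The 4 arrays were alike in the number of probes well above background, from 27922 to 28244 of 41000, and all lay on 1 slide. The naive flasks differed more from each other than the resistant flasks did, with an SD of the log2 difference over all tested probes of 0.71 against 0.37, and each value that rests on 1 naive flask is given as such. A probe was tested when both arrays of the naive line, of the resistant line or of both read it well above background. Of the 28221 such probes, limma called 2.30% as higher in the resistant line and 2.97% as lower there, with an adjusted p below 0.05 and 2-fold as the smallest change. With 2 flasks a line, no single probe can have a two-sided p under 0.333 in an exact permutation test. In such bulk samples, more cells with the RNA and more RNA per cell cannot be told apart.

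SEPP1 was not well above background in either naive flask and was well above background in both resistant flasks. The level was -8.64 and -7.03 in the naive flasks and -0.92 and -0.81 in the resistant flasks, so the lines were far apart and the resistant flasks almost equal. The mean spot signals behind these levels were 27.0 and 33.0 over local backgrounds of 24 and 22 on the naive arrays, and 597 and 517 over local backgrounds of 21 and 27 on the resistant arrays. The signal was thus 28.4 and 19.2 times its surroundings in the resistant flasks and close to them in the naive flasks. In the first naive flask the processed signal of 2.70 was a surrogate that the software set for a spot at background, so the spread between the naive flasks (-7.84 ± 1.14) is mostly that of background.
The difference between the means, resistant minus naive, was 6.97 on the log2 scale, but the naive mean is no measured level. Set against the dimmest probe still well above background on each naive array, SEPP1 was at least 42.0-fold higher in the resistant line. This bound was 43.3 to 44.1 with median, scale or quantile normalization and 5.85 with the normexp background correction, which adds a constant to all signals (9.45 with bright local backgrounds reset). Without the first or the second naive flask the difference was 6.17 and 7.77. In this way 425 probes rose out of the background, well above it in both resistant flasks and in neither naive flask. Of these, 244 had a current gene symbol, and 2 of these 244, SEPP1 included, had a bound as large as that of SEPP1. As the family was selected on this difference of SEPP1, its place among these probes is a description only.

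**Figure D1:**
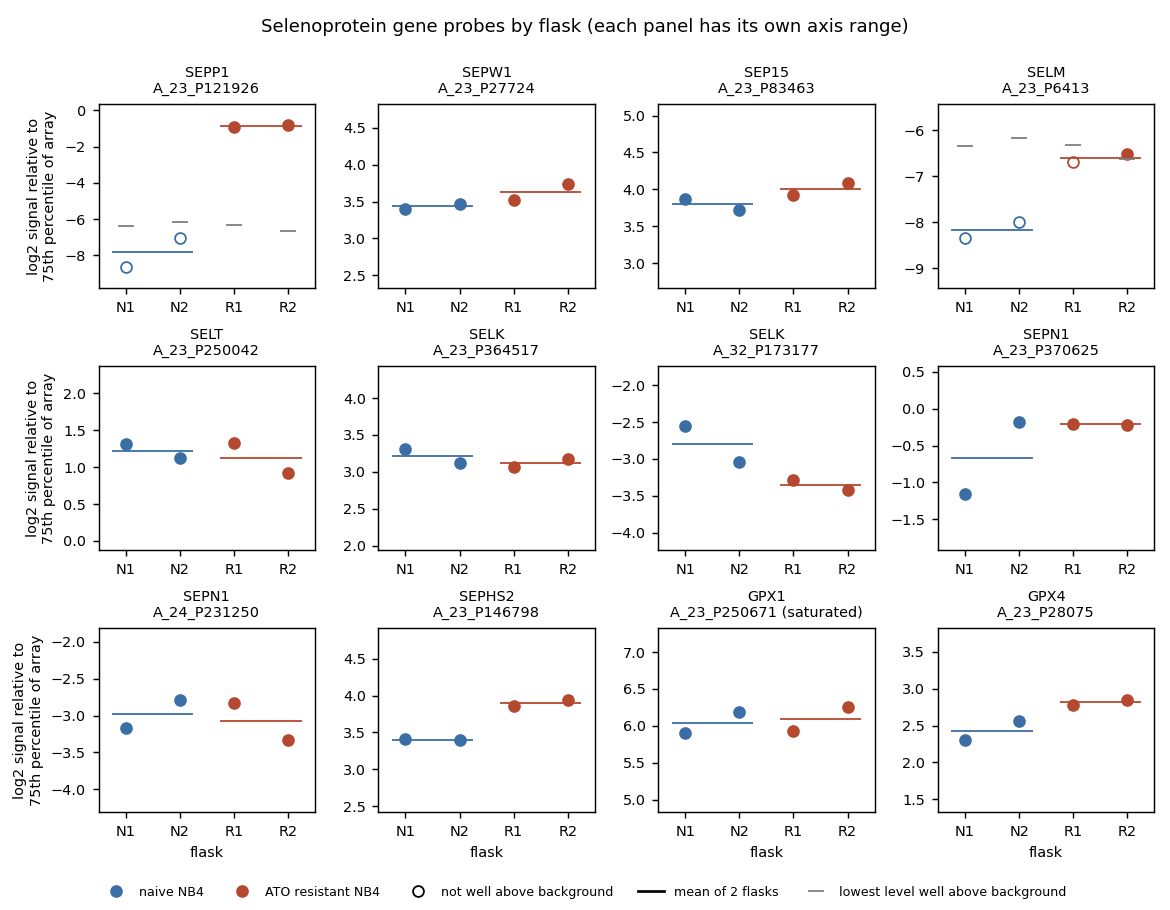
Level of each of the 12 selenoprotein probes in each flask (N1 and N2 naive, R1 and R2 resistant), as log2 signal relative to the 75th percentile of the array on the vertical axis, each panel on its own range. Filled points were well above background, open points were not, colored lines are means of the 2 flasks, and grey dashes in the panels of SEPP1 and SELM mark the dimmest level still well above background on that array. SEPP1 goes from below the dashes in both naive flasks to -0.92 and -0.81 in the resistant flasks, and in the other panels the lines differ by far less.

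The glutathione peroxidases reduce peroxides with glutathione, GPX1 in the cytosol and GPX4 on lipid peroxides in membranes, where it protects from ferroptosis. The level of GPX4 was 2.30 and 2.56 in the naive flasks and 2.78 and 2.85 in the resistant flasks. The resistant flasks were both higher, by 0.38 in the means or 1.30-fold. Flasks without overlap and higher in the resistant line were found for 24.5% of all tested probes, and lower ones for 28.0%, so an absence of overlap is common on these arrays. The array files place the GPX4 probe on no chromosome. GPX1 was saturated on all 4 arrays, with processed signals of 64808 and 65263 in the naive flasks and 64124 and 64187 in the resistant flasks. Its level of 5.91, 6.18, 5.94 and 6.25 follows the 75th percentile of each array, and no fold change is given.

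SEPW1 and SEP15 code for small proteins with a thioredoxin-like fold, SEPW1 in the cytosol and SEP15 in the endoplasmic reticulum, where it binds the glycoprotein folding sensor. SELM and SELT are relatives of the same fold in the endoplasmic reticulum. The level of SEPW1 (chr19:48287827-48287886, plus strand) was 3.41 and 3.47 in the naive flasks and 3.53 and 3.74 in the resistant flasks. That of SEP15 (chr1:87328686-87328745, minus strand) was 3.87 and 3.73 in the naive flasks and 3.92 and 4.09 in the resistant flasks. Both were higher in each resistant flask than in each naive flask, with differences of 0.19 and 0.21 in the means, or 1.14-fold and 1.15-fold. SELT (chr3:150345573-150345632, plus strand) had levels of 1.32 and 1.12 in the naive flasks and 1.33 and 0.92 in the resistant flasks, which overlapped.
SELM (chr22:31500863-31500922, minus strand) had levels of -8.34 and -7.99 in the naive flasks and -6.69 and -6.52 in the resistant flasks. It was well above background on 1 array, that of the second resistant flask, so it did not pass the filter, and its mean difference of 1.57 is between values at or near background, for which no fold is given. The processed signals of SELM were 3.32 and 3.54 in the naive flasks and 10.2 and 9.21 in the resistant flasks.

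SELK and SEPN1 code for membrane proteins of the endoplasmic reticulum. SELK takes part in the degradation of misfolded proteins and in calcium flux of immune cells, and SEPN1 in the redox control of calcium uptake. The brighter probe of SELK had levels of 3.31 and 3.12 in the naive flasks and 3.06 and 3.18 in the resistant flasks, which overlapped, with a difference of -0.10. The dimmer probe, which lies downstream of it on the same strand and was matched to no current symbol through its accession, had levels of -2.56 and -3.04 in the naive flasks and -3.29 and -3.42 in the resistant flasks. It was lower in both resistant flasks, by 0.56 in the means or 1.47-fold, so the probes of SELK gave different answers.
The brighter probe of SEPN1 had levels of -1.16 and -0.18 in the naive flasks and -0.21 and -0.21 in the resistant flasks. Its difference of 0.46 came from the first naive flask alone, and without that flask it was -0.030. The dimmer probe of SEPN1 had levels of -3.16 and -2.79 in the naive flasks and -2.83 and -3.32 in the resistant flasks, which overlapped.

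SEPHS2 makes selenophosphate, the selenium donor for selenocysteine, and is itself a selenoprotein. Its level (chr16:30455474-30455533, minus strand) was 3.40 and 3.39 in the naive flasks and 3.86 and 3.95 in the resistant flasks. The flasks of each line were close together (3.40 ± 0.0091 and 3.90 ± 0.058), and the resistant line was higher by 0.51 or 1.42-fold. This was the largest difference toward higher levels among the 9 unsaturated selenoprotein probes with a signal well above background on every array.
These 9 probes had differences from -0.56 to 0.51, none reaching 2-fold. The flasks of the lines did not overlap for 4 of them with the resistant line higher (SEPW1, SEP15, SEPHS2, GPX4), did not overlap for 1 with the resistant line lower (the dimmer SELK probe), and overlapped for the other 4. The median size of their difference was 0.21, whatever its sign, and that over all tested probes was 0.34. Under every other background correction and normalization run, and in the deposited log2 values, SEPW1, SEP15, SEPHS2 and GPX4 kept a positive difference. The dimmer SELK probe kept a negative one. Leaving out a flask or changing the filter cannot turn the sign of a probe whose flasks do not overlap, so those settings say nothing about it. Under the normexp background correction the median of all tested probes moved from -0.021 to 0.14, and SEPW1 (0.11) and GPX4 (0.070) then lay below that median. Under scale normalization it moved to 0.082, and the brighter SELK probe (0.079) and SELT (0.037) turned positive.
Of the 12 probes, 11 passed the filter, for 9 of the 10 genes. Among these 11 probes SEPP1 was the only one 2-fold or more apart without overlap of the flasks, a class that held 5.77% of all tested probes on the side of the resistant line. The median difference of the 11 probes was 0.19, and that of all tested probes was -0.021.

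**Figure D2:**
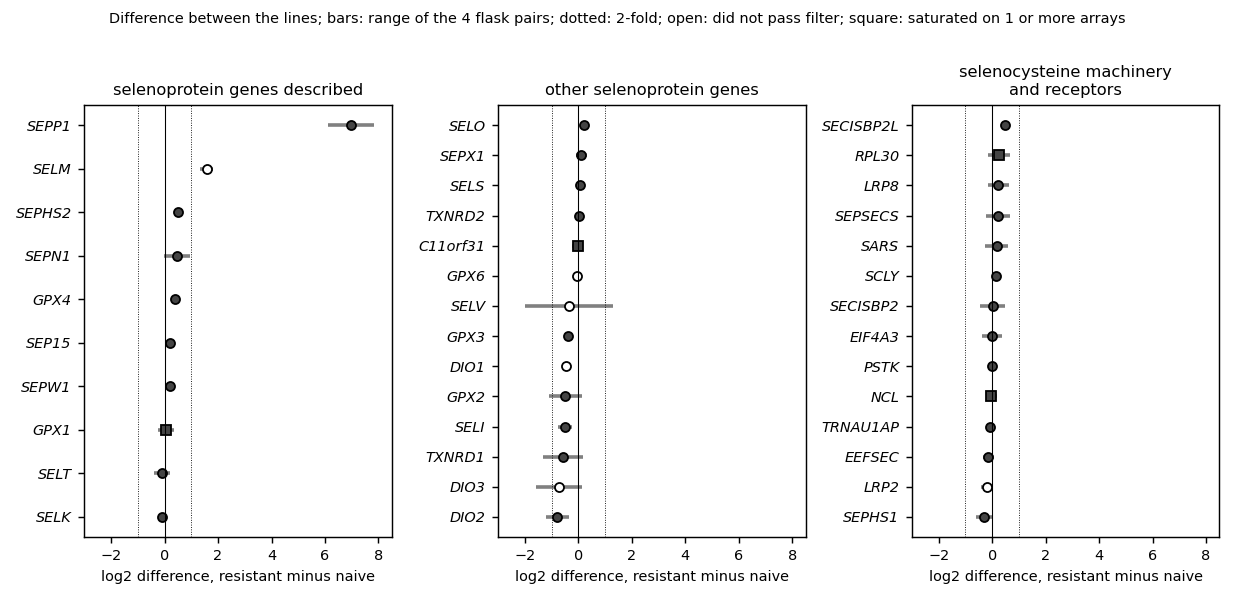
Difference between the lines in log2 units, resistant minus naive, on the horizontal axis for the selenoprotein genes described, other selenoprotein genes, and genes of selenocysteine synthesis and insertion with the receptors of selenoprotein P, 1 probe a gene. Bars span the 4 pairs of a resistant and a naive flask, dotted lines mark 2-fold, open symbols did not pass the filter and squares were saturated on at least 1 array. SEPP1 stands at 6.97, the genes of the other lists lie between -0.79 and 0.49 where they passed the filter, and SELM at 1.57 is an open symbol.

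The other human selenoprotein genes were tested with limma over all probes. Of 15 genes 14 had a probe, and 10 of these passed the filter. None of the 10 was called changed by limma, and none by the adjusted p of the methods' t-test, which called 0 of all 28221 probes and so says nothing about any list. An unadjusted limma p below 0.05 was found for 1 of them, DIO2. The differences ran from -0.79 to 0.21 with a median of -0.20, the largest being 1.73-fold.
DIO2, which activates thyroid hormone, had levels of -4.03 and -4.63 in the naive flasks and -5.26 and -4.98 in the resistant flasks. Both resistant flasks were lower, by 0.79 with a 95% interval of the difference from -1.54 to -0.048 and an adjusted p of 0.238, and DIO2 among the settings run was called only without the second naive flask (difference -1.09, adjusted p 0.0187), where the spread comes from the resistant flasks and the lone naive flask is assumed to vary like them. GPX3, the secreted plasma glutathione peroxidase, is like SEPP1 an extracellular selenoprotein. Its levels of -4.36 and -4.57 in the naive flasks and -4.89 and -4.78 in the resistant flasks gave a difference of -0.37 (95% interval -0.94 to 0.20, adjusted p 0.436), so the resistant flasks were lower and the call was not made. The thioredoxin reductases, selenoenzymes that arsenicals are known to inhibit, were not called either. TXNRD1 in the cytosol had a difference of -0.57 (95% interval -1.56 to 0.43, adjusted p 0.495) with overlapping flasks, and TXNRD2 in mitochondria had 0.0044 (95% interval -0.55 to 0.56). A change of TXNRD1 by up to 1.56 toward lower levels is within its interval, so 2 flasks a line leave much undetected.
GPX2 had a difference of -0.49 with overlapping flasks, SELI, which makes phosphatidylethanolamine, -0.50 with both resistant flasks lower, and SELO 0.21 with both resistant flasks higher. The probes of SELO gave different answers, as a dimmer one was lower in both resistant flasks, by 0.078, and another overlapped (0.096). SEPX1 (now MSRB1), which repairs oxidized methionine, and SELS, a partner of endoplasmic reticulum degradation, differed by 0.11 and 0.058. A dimmer probe of SELS was higher in both resistant flasks, by 0.41, and was not called (adjusted p 0.389). C11orf31 (now SELENOH) was saturated on 3 arrays. GPX6 and DIO1 were not well above background on any array, DIO3 was so on 1 array of each line, and SELV on 1 naive array.

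Genes that make and insert selenocysteine were tested in the same way together with the receptors. All 14 had a probe, 13 passed the filter, and none was called by limma or had an unadjusted limma p below 0.05. Their differences ran from -0.30 for SEPHS1 to 0.49 for SECISBP2L, with a median of 0.017. SEPHS1 is a paralog of SEPHS2 without selenocysteine, and SECISBP2L is a relative of the hairpin-binding factor SECISBP2. SEPHS1 had levels of 3.07 and 2.54 in the naive flasks and 2.45 and 2.55 in the resistant flasks. Its difference thus came from the first naive flask.
SECISBP2L had levels of -3.73 and -3.78 in the naive flasks and -3.14 and -3.39 in the resistant flasks, both higher, with a 95% interval from -0.093 to 1.07 and an adjusted p of 0.333. SECISBP2 itself, which binds the hairpin and is needed for insertion, differed by 0.017 (95% interval -0.75 to 0.78), and EEFSEC, the elongation factor for selenocysteine, by -0.15. The enzymes PSTK and SEPSECS, which convert serine on the tRNA, differed by -0.025 and 0.23, and SCLY, which recycles selenium from selenocysteine, by 0.16. The difference of SEPSECS came from the second naive flask, as its levels were -1.89 and -2.72 in the naive flasks and -2.11 and -2.05 in the resistant flasks. LRP8, a receptor of selenoprotein P, had levels of 1.34 and 0.95 in the naive flasks and 1.18 and 1.57 in the resistant flasks, which overlapped (difference 0.23, adjusted p 0.698). The other receptor, LRP2, was not well above background on any array. The brightest probes of NCL and RPL30, both known to bind the hairpin, were saturated on 4 and 3 arrays. A dimmer probe of NCL, saturated on no array, had levels of 4.03 and 3.63 in the naive flasks and 3.42 and 3.44 in the resistant flasks. It was lower in both resistant flasks, by 0.40 in the means, and was not called (adjusted p 0.443).
Of 7 relatives of selenoproteins that have cysteine in place of selenocysteine, 6 passed the filter and none was called by limma. Their differences were all above 0, from 0.024 for GPX5 to 0.65 for MSRB2 (adjusted p 0.216), and 2 of them, MSRB2 and C17orf37, had an unadjusted limma p below 0.05.

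SEPP1 is known to be switched on in liver cells by FOXO1 together with its coactivator PPARGC1A (PGC-1α) and HNF4A, a regulation it shares with genes of glucose production. The genes for 5 such regulators were examined, of which 4 passed the filter. FOXO1, FOXO3 and SP1 were measured in both lines, and of these FOXO1 was called by limma, higher in the resistant line. PPARGC1A passed through the resistant line alone, so it could differ in that direction only, and its call is not counted with these.
FOXO1 had levels of -2.29 and -2.21 in the naive flasks and -0.80 and -0.68 in the resistant flasks. Both resistant flasks were higher, by 1.51 (SE 0.22, adjusted p 0.0227) or 2.85-fold. Its dimmer probe was also higher in both resistant flasks, by 0.93, and was not called (adjusted p 0.108). The call was lost with the normexp background correction (difference 1.16) and in the methods' t-test (adjusted p 0.153). Both of these settings called no probe at all, so the loss there is not particular to FOXO1. It was also lost without the first or the second resistant flask (differences 1.57 and 1.45). In those fits the spread comes from the naive flasks and the lone resistant flask is assumed to vary like them.
PPARGC1A had levels of -8.42 and -8.46 in the naive flasks, where it was not well above background, and -5.37 and -5.46 in the resistant flasks, where it was. It was at least 1.80-fold higher, a bound that does not reach 2-fold, and a second probe for PPARGC1A was at background on all arrays. The adjusted p of the fit (0.00253) rests on naive values at background. The call was lost with both forms of the normexp correction (differences 0.72 and 0.67) and in the methods' t-test (adjusted p 0.129). The first of these forms and the t-test called no probe at all, so the loss there is not particular to PPARGC1A.
FOXO3 and SP1 were not called, with differences of 0.41 (adjusted p 0.413) and 0.39 (adjusted p 0.574). SP1 had levels of -1.49 and -2.27 in the naive flasks and -1.40 and -1.59 in the resistant flasks. Its flasks overlapped, and its difference came from the second naive flask. No probe of HNF4A was well above background on any array.

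**Figure D3:**
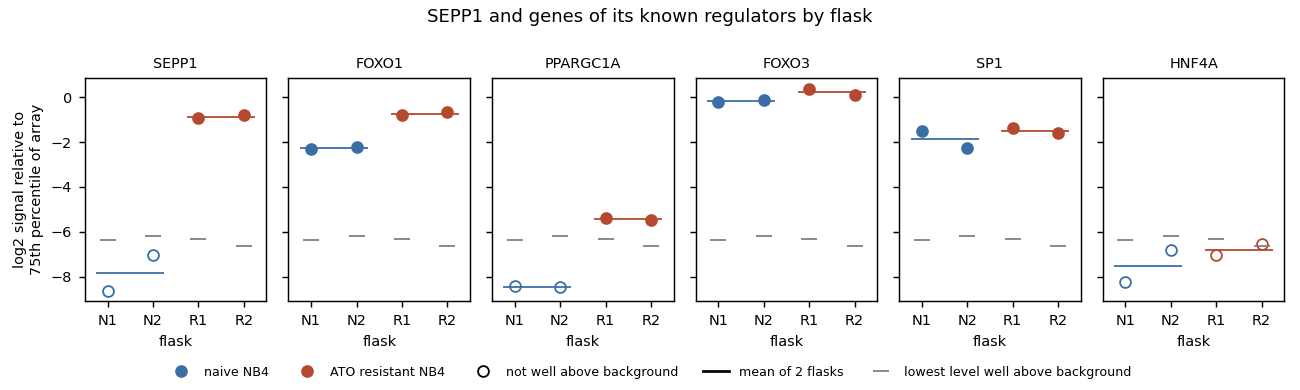
Levels of SEPP1 and of the genes for 5 known regulators of it in each flask (N1 and N2 naive, R1 and R2 resistant), as log2 signal relative to the 75th percentile of the array, 1 probe a gene. Filled points are probes well above background on both arrays of the line, open points are not, lines are means of the 2 flasks and grey dashes mark the dimmest level still well above background on that array. SEPP1, FOXO1 and PPARGC1A are higher in both resistant flasks, and HNF4A is open in all 4.

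As FOXO1 was called, the promoter of SELENOP was searched for the forkhead motif GTAAACA on both strands (reverse TGTTTAC). The 250 bases before the RefSeq start of SELENOP are given here in GRCh38.p14 at chr5:42811893-42812142, read along the minus strand, with the motif in capitals.
SELENOP: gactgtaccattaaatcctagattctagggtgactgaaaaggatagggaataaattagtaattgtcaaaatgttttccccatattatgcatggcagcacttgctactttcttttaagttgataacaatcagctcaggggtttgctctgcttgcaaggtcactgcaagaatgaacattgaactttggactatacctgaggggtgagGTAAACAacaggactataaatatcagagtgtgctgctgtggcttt
The motif begins 45 bases before the start. Of 35116 RefSeq promoter windows of this length, 1046 (2.98%) hold it. Windows were given for 9 of the 10 selenoprotein genes, and 1 of these genes, SELENOP, holds it. Such a match describes letters in this window, not a bound site.

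Genes near SEPP1 were examined to see whether the difference was shared along the chromosome. Of 17 other probes within 500 kb of the SEPP1 probe 11 passed the filter, and none was called by limma, with 2 at an unadjusted p below 0.05 and differences from -0.46 to 1.21. GHR, the growth hormone receptor and the nearest named gene with a probe toward lower coordinates, was not well above background on any array with either of its probes, at levels from -8.60 to -8.37. On the other side C5orf39 (now ANXA2R) had levels of -1.18 and -1.29 in the naive flasks and -0.41 and -0.30 in the resistant flasks, higher in both by 0.88 (adjusted p 0.108). The transcript hCG_2039148 differed by 1.21 (adjusted p 0.101) and the zinc finger gene ZNF131 by 0.58 (adjusted p 0.270). HMGCS1, of sterol synthesis, had levels of 3.72 and 1.19 in the naive flasks and 3.49 and 3.46 in the resistant flasks, so that its difference of 1.02 came from the second naive flask. In the RefSeq table CCDC152 overlaps SELENOP, and no probe of the array carries its name.

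**Figure D4:**
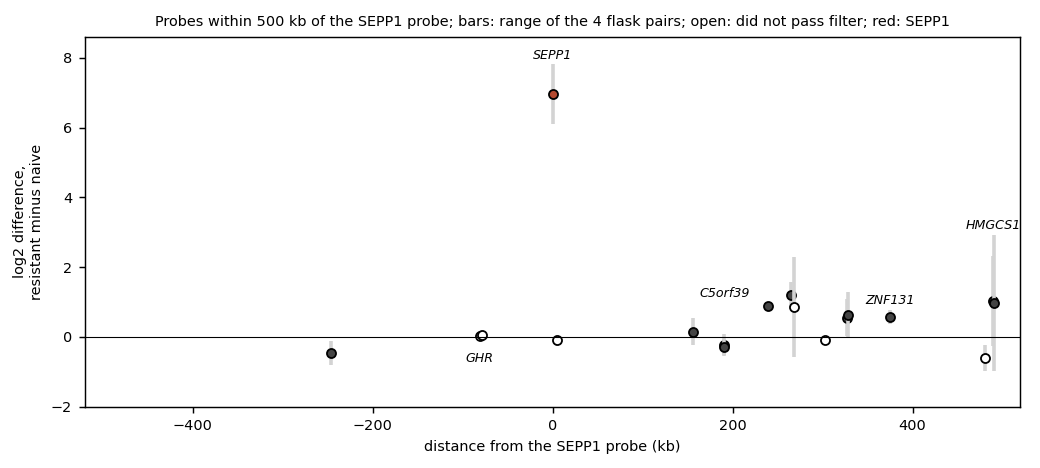
Difference between the lines in log2 units, resistant minus naive, of the SEPP1 probe and the 17 other probes within 500 kb of it, against the distance from the SEPP1 probe in kb. Bars span the 4 pairs of a resistant and a naive flask, and open points did not pass the filter. SEPP1 stands at 6.97, and the 11 other probes that passed lie between -0.46 and 1.21.

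The profile of SEPP1 over the 4 arrays was compared with those of 241 other probes of genes with a current symbol in the same class, each centered on its own mean and with a value on every array. The nearest by Euclidean distance were GDPD2 (distance 0.98), RBM47 (1.06) and INPP4B (1.08). GDPD2 had levels of -8.52 and -8.29 in the naive flasks and -1.61 and -1.54 in the resistant flasks, at least 25.7-fold higher. RBM47, an RNA-binding protein, and INPP4B, a phosphatase of phosphoinositides, were at least 29.5-fold and 20.9-fold higher. The naive levels in these profiles are at background for SEPP1 and for every candidate, so the order of the distances reflects background values and steps of unmeasured size.

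SEPP1 is known to be expressed in liver and in tissue macrophages, so markers of these cell types and of promyelocytes were read on the same arrays. For the counts below, limma called 2.30% of all tested probes as higher in the resistant line and 2.97% as lower. Flasks without overlap were found for 24.5% with the resistant line higher and 28.0% with it lower. No list was tested as a set against these shares. All 8 promyelocyte genes passed the filter, with MPO saturated on every array and CTSG on 2, and their summed level on a linear scale was 124 to 138 in the naive flasks and 157 to 188 in the resistant flasks, relative to the 75th percentile. Saturated genes cannot measure a difference, and the sum over the 6 genes saturated on no array was 21.30 to 24.95 in the naive flasks and 34.5 to 34.9 in the resistant flasks. The rise of this sum came mostly from 1 gene that was not called. Of all 8 genes, 5 had a difference above 0 and 3 below, so the sums do not show a rise of the list as a set. CD33 and CEBPE, with a signal well above background on every array, were lower in both resistant flasks, with differences of -0.29 and -0.62. Neither was called by limma (adjusted p 0.564 and 0.244). Limma called 2 of the 8, both higher in the resistant line, the granule protease genes ELANE (2.49, adjusted p 0.0169) and AZU1 (1.17, adjusted p 0.0472). ELANE was well above background in 1 naive flask only, so it passed through the resistant line alone. Like PPARGC1A it could thus hardly be called lower, and its difference rests in part on a naive value at background. Both calls were lost under 7 of 15 alternatives, among them leaving out either resistant flask. Of these alternatives 2, the normexp correction and the methods' t-test, called no probe at all.
Of 10 liver genes for plasma proteins, 6 were not well above background on any array, APOA1, APOA2, APOC3, FGA, FGB and TTR. The summed level was 0.343 to 0.561 in the naive flasks and 2.19 to 2.83 in the resistant flasks. HP alone carried the rise, since without it the sum was 0.0970 to 0.427 in the naive flasks and 0.257 to 0.325 in the resistant flasks. Limma called 1 of the 4 that passed, HP for haptoglobin, a gene that maturing granulocytes also express, with levels of -2.03 and -2.91 in the naive flasks and 0.95 and 1.32 in the resistant flasks, a difference of 3.61 (adjusted p 0.00657). ALB was at -8.62 and -4.74 in the naive flasks and -4.35 and -4.31 in the resistant flasks, and was not called (adjusted p 0.372).
Of 9 tissue macrophage genes with a probe, CD163, C1QB and C1QC were not well above background on any array, and the summed level was 0.452 to 0.559 in the naive flasks and 0.469 to 0.525 in the resistant flasks. Of the 6 that passed, 3 were higher in both resistant flasks and 3 lower in both, with a median difference of -0.10. C1QA and CD14 were among the lower ones, by 0.77 and 0.50 in the means, and were not called (adjusted p 0.252 and 0.300). Limma called 2 of these 6, both higher in the resistant line, F13A1 (2.76, adjusted p 0.00543) and the scavenger receptor gene MARCO (1.87, adjusted p 0.0128). F13A1 was well above background in 1 naive flask only and passed through the resistant line alone. It too could hardly be called lower, and its difference rests in part on background. The calls of F13A1 and MARCO were each lost under 4 of 15 alternatives, 2 of which called no probe at all. For MARCO the remaining ones were leaving out either resistant flask. Among genes measured in both lines, levels of HP, AZU1 and MARCO thus moved in the same direction as SEPP1, and those of CD33, CEBPE, C1QA and CD14 in the other. ELANE and F13A1 were also higher in the resistant line, but they passed the filter through that line alone. The part of these genes in the difference of SEPP1 was not tested.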

How the data were processed

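RNA of 4 flasks was labeled with Cy3 and hybridized to 1-colour Agilent arrays (design 014850) by the authors, and spots were read with Agilent software (Feature Extraction 10.5.1.1). The deposited processed signal is an intensity, background subtracted on a linear scale, and the mean signal and local background are further deposited intensities. A second deposited table holds log2 values that the authors had shifted by each array's 75th percentile. Arrays have no read depth, and their number limits the precision.

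The processed signals were put on the log2 scale (R 4.3.3). Control spots and outlier spots were left out, spots of a probe were averaged and the 75th percentile was subtracted (Pearson's r with the deposited table at least 0.9998). A probe was tested when both arrays of either line, or of both, read it well above background. Lines were compared with limma 3.58.1, and p-values were adjusted by Benjamini and Hochberg's method over 28221 probes. A gene of a list is given by its brightest probe that passed. Folds against a line at background are lower bounds.

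The members, lists and tests were chosen with earlier results of these data known. By rule the text names all members, may name any gene of the lists of other selenoproteins and of the machinery, and names called genes of other lists, genes within 500 kb of SEPP1 and the 3 nearest profiles. Markers at background and uncalled list genes were named in addition, after their values were seen. The values of 1 marker gene are not reported here, and it is counted in the totals of its list. Alternatives were other background corrections, normalizations, filters and tests, the replicate number as a block, and each flask left out.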

Additional observations from a re-analysis of the deposited data

How the results depend on the processing

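Among the 10 selenoprotein genes, the count at least 2-fold apart without overlap was 1 (SEPP1). It was 2 with no filter on dim probes (SELM added) and 0 where probes had to be well above background on all 4 arrays, since SEPP1 then could not be tested. It stayed at 1 under the other settings and without any 1 flask. As the family was selected on the difference of SEPP1, this count was largely fixed in advance. The flask pairs of SEPP1 differed by 6.11 to 7.83, so leaving out a flask could not bring it below 2-fold. The count of other selenoprotein genes called was 0 in every setting except without the second naive flask, where it was 1, and that of machinery genes was 0 in every setting. Leaving out each flask thus gave 1 to 1, 0 to 1 and 0 to 0 genes. Of 1487 probes called in all (5383 at an unadjusted p below 0.05), 0 were called with the normexp correction (922 at an unadjusted p below 0.05), 0 by the methods' t-test after adjustment (4138) and 760 where all 4 arrays had to be well above background. Leaving out each flask gave 728 to 4536, with 3733 and 4536 without the first and second naive flask and 743 and 728 without the first and second resistant flask. The cause of these shifts was not tested. The other settings gave 1004 to 1948 probes. Over the settings, 131 recomputed member differences moved by less than the spread between flasks and 13 by more. Leaving out 1 of 2 flasks shifts a mean by less than that spread, and a filter does not change a difference, so these settings could not add to the 13. All 13 came with the normexp correction, in either form, or with scale normalization. Called genes of the other lists kept their call in 73 checks and lost it in 32, with no change of sign. Some of the 32 losses were fixed in advance, as the normexp correction and the methods' t-test called no probe at all.

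With the replicate number as a block, limma called 1375 probes (588 higher, 787 lower), and 0 genes among the other selenoprotein genes and 0 in the machinery. Of the genes named, AZU1 lost its call (adjusted p 0.0832). Deviations of same-numbered flasks correlated at 0.119 over 2 pairs, too few to show that the numbers pair the flasks. The slide was not used as a block, as there was 1 slide.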
